A study of Mus musculus with 30 samples.

Results

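H19, Igf2 and the receptors and RNA-binding proteins around them were followed from embryonic stem cells to blood progenitors in wild type cells and in cells mutant for the transcription factors Sp1 or Sp3. The members were the rows of the deposited expression table with the symbols H19, Igf2, Igf2r, Igf1r, Igf2bp1, Igf2bp2 and Igf2bp3, that is 7 of the 14685 genes in the table, and all 7 passed the filter on low values. The set was chosen by 1 measured pattern, the lower H19 values of the Sp1-mutant samples after the embryonic stem cell stage. The H19 values of WT and Sp1-mutant cells are therefore given as a description with no test, while the other 6 members were tested.

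Total RNA was sequenced from 30 samples, 2 biological replicates of each of 15 groups. All cells were derived from the mouse embryonic stem cell (ESC) line E14 and carried 1 of 3 genotypes. WT cells had both factors intact, Sp1_deltaDBD cells lacked the DNA-binding domain of Sp1 and still made a truncated protein, and Sp3KO cells were knocked out for Sp3. Each genotype was represented by a cell line of its own, so line and genotype cannot be told apart. ESC were maintained on embryonic fibroblast feeders and were grown without feeders before differentiation. The 5 populations were ESC, Flk1+ cells isolated from embryoid bodies on magnetic columns (Flk1), and 3 populations sorted on day 2 of blast culture, the in vitro step in which Flk1+ cells form endothelium and blood. All 3 carried KIT. HE1 cells had Tie2 and no CD41, HE2 cells had both, and progenitor cells had CD41 but no longer Tie2. HE stands for hemogenic endothelium, the endothelium that gives rise to blood. By the study's methods the time in embryoid bodies depended on the cell line, and the time of each sample is not given. Culture time may therefore differ between genotypes from Flk1 cells on, and its part in the differences was not tested. Values are FPKM, fragments scaled to transcript length and to library size, quantile normalised by the authors, so that levels are per length and can be set side by side for different genes. The read depth behind each value is unknown.

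H19 is a long non-coding RNA transcribed from the maternal chromosome, and Igf2 encodes insulin-like growth factor 2 (IGF2), a fetal growth factor expressed from the paternal chromosome. Both genes lie in an imprinted domain with shared enhancers and a differentially methylated control region between them. IGF2 signals through the receptor tyrosine kinase IGF1R and is cleared by IGF2R, which also carries lysosomal enzymes. The IGF2BP proteins bind Igf2 mRNA and many other mRNAs and act on their stability, location and translation. Sp1 and Sp3 are zinc finger factors that bind GC-rich promoter elements such as the GC box.

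H19 is annotated at chr7:142575529-142578143 on the minus strand of GRCm38 (mm10), as a long intergenic non-coding RNA, and Igf2 at chr7:142650766-142666816 on the same strand, 72623 bp away. The other members are protein-coding genes elsewhere in the genome, with Igf1r at chr7:67952827-68233668, Igf2r at chr17:12682406-12769664, Igf2bp1 at chr11:95957163-96005940, Igf2bp2 at chr16:22059009-22163299 and Igf2bp3 at chr6:49085223-49214957. The H19 RNA is the precursor of the microRNA miR-675, which lies in an exon of 3 of the 7 annotated H19 transcripts. The mature RNAs (RefSeq, GRCm38.p6, minus strand) are shown because they are what H19 RNA is processed into. They were not measured in these libraries as mature RNAs. Capitals mark the seed, bases 2 to 8.
mmu-miR-675-5p, chr7:142577112-142577133: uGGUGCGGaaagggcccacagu
mmu-miR-675-3p, chr7:142577078-142577099: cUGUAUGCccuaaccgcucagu

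Promoter windows of 250 bases before a RefSeq start site were at hand for 5 of the members, Igf2 with 4 start sites and Igf2r, Igf1r, Igf2bp2 and Igf2bp3 with 1 each. H19 and Igf2bp1 had none in the table used. The windows were searched on both strands for the GC box written as the letters GGGCGG, and overlapping matches were counted. Of 32851 windows of this length in the same table, 32.7% held at least 1 match and 16.7% held 2 or more. Igf2r had 3 matches, Igf1r had 2, Igf2bp2 had 2, 1 Igf2 window had 2, another had 1, and the other Igf2 windows and Igf2bp3 had 0. The GT box, another element that Sp factors recognise, was searched as GGGTGG, and 28.1% of all windows held at least 1. Igf2bp3 had 1 GT box, the Igf2 window with 2 GC boxes had 2, another Igf2 window had 1, and the other windows of the members had 0. A match is a string of letters and not a measured binding site. Of the members, Igf2bp2 and Igf2bp3 carried the called differences from WT described below, and the Igf2 window with 2 matches is shown for comparison, all on the minus strand and printed 5′ to 3′ with the GC box letters or their reverse complement in capitals.
Igf2bp2, chr16:22163300-22163549: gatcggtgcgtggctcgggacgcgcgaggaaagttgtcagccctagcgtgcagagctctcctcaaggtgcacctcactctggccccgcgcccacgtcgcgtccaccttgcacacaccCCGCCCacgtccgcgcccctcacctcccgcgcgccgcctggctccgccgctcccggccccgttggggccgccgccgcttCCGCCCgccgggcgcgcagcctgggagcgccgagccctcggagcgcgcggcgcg
Igf2bp3, chr6:49214955-49215204: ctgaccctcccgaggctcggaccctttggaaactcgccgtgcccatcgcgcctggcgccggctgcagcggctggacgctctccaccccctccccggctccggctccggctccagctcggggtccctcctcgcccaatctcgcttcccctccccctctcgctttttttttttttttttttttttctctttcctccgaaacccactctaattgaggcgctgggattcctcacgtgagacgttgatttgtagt
Igf2, chr7:142657497-142657746: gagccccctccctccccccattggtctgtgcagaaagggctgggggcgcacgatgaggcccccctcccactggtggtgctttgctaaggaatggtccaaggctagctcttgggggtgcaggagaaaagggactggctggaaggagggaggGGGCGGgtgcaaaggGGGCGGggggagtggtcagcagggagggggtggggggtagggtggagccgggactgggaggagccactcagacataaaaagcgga

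The labels were checked against the targeted genes and cell markers. Sp3 lay between 3.38 and 7.79 FPKM in the 10 Sp3KO samples and between 25.9 and 58.1 FPKM in the 10 WT samples. Sp1 RNA remained present in Sp1_deltaDBD cells, at 14.8 to 40.5 FPKM against 24.9 to 52.4 FPKM in WT cells, and RNA outside the deleted domain does not report on the deletion. The 5 ESC markers (Pou5f1, Nanog, Zfp42, Esrrb and Sox2) summed to 1086 to 1331 FPKM in ESC and to 2.16 FPKM or less in the 3 sorted populations. Some sorted libraries stood apart. In WT HE1 cells the 6 cardiac and smooth muscle markers (Tnnt2, Myl7, Myl4, Actc1, Acta2 and Tagln) summed to 1698 FPKM in replicate 1 and 356 FPKM in replicate 2, and the 4 epithelial markers summed to 711 and 63.0 FPKM. The muscle sums of Sp1_deltaDBD HE1 cells were 997 and 248 FPKM, and those of Sp3KO HE1 cells 195 and 123 FPKM. Replicate 1 also held the higher muscle and epithelial sums in HE2 and progenitor samples of WT and Sp1_deltaDBD cells. In ESC the 7 measured of 9 fibroblast and mesenchyme markers summed to 6.32 and 6.41 FPKM in WT cells. They summed to 13.3 and 16.6 FPKM in Sp1_deltaDBD and to 5.22 and 11.3 FPKM in Sp3KO ESC. Of the 9 markers of extraembryonic endoderm, another cell type rich in H19 and Igf2, 1 was in the table, at 1.71 FPKM or less. In bulk samples fewer cells of a type and less RNA per cell cannot be told apart.

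H19 rose from ESC to HE1 in WT cells and fell after it, and in Sp1_deltaDBD cells it was lower than in WT after the ESC stage. WT replicates measured 4.73 and 1.72 FPKM in ESC, 46.9 and 77.5 FPKM in Flk1 cells, 531 and 550 FPKM in HE1, 309 and 249 FPKM in HE2 and 58.4 and 32.7 FPKM in progenitors. HE1 was thus the highest WT population and HE2 the next, the ranges of Flk1 cells and progenitors overlapped, and ESC was the lowest. At its peak H19 ranked 112 and 109 from the top among all genes in the WT HE1 samples.

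In Sp1_deltaDBD cells H19 measured 5.02 and 2.95 FPKM in ESC, 4.48 and 13.0 FPKM in Flk1 cells, 31.6 and 26.3 FPKM in HE1, 18.2 and 8.99 FPKM in HE2 and 3.86 and 0.669 FPKM in progenitors. The order of the populations was the same at its top, with HE1 above HE2, but every Sp1_deltaDBD sample after the ESC stage lay below both WT samples of its population. The WT mean FPKM was 7.11 times the Sp1_deltaDBD mean in Flk1 cells and 18.7 times in HE1. It was 20.5 times in HE2 and 20.1 times in progenitors. On the scale of log2(FPKM + 0.1) the difference from WT was 0.42 in ESC, -2.96 in Flk1 cells, -4.22 in HE1, -4.43 in HE2 and -4.65 in progenitors, each with a standard error of 0.60 (n = 2 samples a group). In ESC the samples overlapped. Among all 14525 genes tested, 25.2% in Flk1 cells, 19.9% in HE1, 18.6% in HE2 and 17.7% in progenitors also had both mutant samples below both WT samples. These values chose the set and were not tested.

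Marker sums were set beside H19. The WT HE1 libraries with 1698 and 356 FPKM of muscle markers gave 531 and 550 FPKM of H19. The Sp1_deltaDBD HE1 library with 997 FPKM of muscle markers gave 31.6 FPKM of H19. The mean epithelial sum was 292 FPKM in WT and 151 FPKM in Sp1_deltaDBD Flk1 cells, 387 and 116 FPKM in HE1, 115 and 64.2 FPKM in HE2 and 86.2 and 35.7 FPKM in progenitors. The 7 measured of 9 fibroblast and mesenchyme markers had mean sums of 23.5 and 13.0 FPKM in Flk1 cells, 175 and 78.4 FPKM in HE1, 34.1 and 29.7 FPKM in HE2 and 41.4 and 12.6 FPKM in progenitors of these genotypes. Both lists were thus lower on average in Sp1_deltaDBD cells where H19 was lower, and they were also lower in Sp3KO HE1, at 49.1 and 35.1 FPKM, where H19 was 501 and 558 FPKM. The part of such cells in the H19 difference was not tested beyond these values. Without the replicate 1 libraries of WT and Sp1_deltaDBD HE1, HE2 and progenitor cells, 6 libraries in all, the H19 difference between Sp1_deltaDBD and WT was -4.38 in HE1, -4.78 in HE2 and -5.42 in progenitors. With each library left out in turn the H19 difference ranged from -0.29 to 1.12 in ESC, from -3.72 to -2.20 in Flk1 cells, from -4.36 to -4.09 in HE1, from -4.93 to -3.92 in HE2 and from -5.83 to -3.47 in progenitors. It changed sign in ESC and stayed negative in the later populations.

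Sp3KO cells kept H19 at values near those of WT. They measured 2.59 and 3.25 FPKM in ESC, 34.7 and 46.9 FPKM in Flk1 cells, 501 and 558 FPKM in HE1, 189 and 245 FPKM in HE2 and 45.3 and 52.6 FPKM in progenitors. The log2 differences from WT lay between -0.58 and 0.16, within 1 standard error of 0.60, and the Sp3KO and WT samples overlapped except in HE2, where both Sp3KO samples were lower, as they were for 27.3% of all genes. The steps between populations in Sp3KO cells compare only samples that did not choose the set, and were tested with limma. The spread behind their p-values was estimated over all 30 samples, those of WT and Sp1_deltaDBD cells included, so the p-values are not independent of the choice. H19 rose by 3.75 (log2, adjusted p = 3.05e-05) from ESC to Flk1 cells and by 3.71 (adjusted p = 5.33e-05) from Flk1 cells to HE1. The difference from HE1 to HE2 was -1.30 (adjusted p = 0.164), and H19 fell by 2.14 (adjusted p = 0.0293) from HE2 to progenitors. Leaving out any 1 of the 4 Sp3KO HE2 and progenitor libraries ended that last call, with adjusted p of 0.0733 to 0.198.

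Igf2 in WT cells was also lowest in ESC and highest in HE1, and from Flk1 cells on it was above H19 in each sample. It measured 4.68 and 2.17 FPKM in ESC, 191 and 235 FPKM in Flk1 cells, 1976 and 1976 FPKM in HE1, 428 and 725 FPKM in HE2 and 80.1 and 57.3 FPKM in progenitors. Igf2 was rank 9 from the top in both WT HE1 samples and in 1 Sp3KO HE1 sample, and quantile normalisation gives equal ranks equal values, so the identical numbers do not measure the replicate spread. Unlike H19, the Igf2 samples of Sp1_deltaDBD cells overlapped those of WT in Flk1 cells and HE2. They measured 13.9 and 5.64 FPKM in ESC, 106 and 237 FPKM in Flk1 cells, 1313 and 1893 FPKM in HE1, 581 and 501 FPKM in HE2 and 42.5 and 22.9 FPKM in progenitors. Both ESC samples were above WT, as for 22.7% of all genes, and both HE1 and both progenitor samples were below WT, as for 19.9% and 17.7% of all genes. In Sp3KO cells Igf2 measured 1.84 and 2.26 FPKM in ESC, 81.2 and 101 FPKM in Flk1 cells, 1976 and 1028 FPKM in HE1, 501 and 303 FPKM in HE2 and 89.8 and 97.6 FPKM in progenitors.

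Igf2 passed the test against WT in none of the 5 populations of either mutant as fitted. The Sp1_deltaDBD difference was 1.44 (log2, limma adjusted p = 0.0691) in ESC, -0.42 (0.728) in Flk1 cells, -0.33 (0.742) in HE1, -0.05 (0.995) in HE2 and -1.12 (0.145) in progenitors, each with a standard error of 0.46. The ESC difference was called without WT replicate 1 (1.98, adjusted p = 0.0424) and without Sp1_deltaDBD replicate 2 (2.09, adjusted p = 0.0249). For Sp3KO cells it was largest in Flk1 cells, at -1.22 (adjusted p = 0.0874). Compared with each other, Sp3KO cells had less Igf2 than Sp1_deltaDBD cells in ESC, by 2.07 (adjusted p = 0.00761), and more in progenitors, by 1.58 (adjusted p = 0.0309). Fitted on each population alone these gave adjusted p = 0.126 and 0.0873, and leaving out 1 library raised them to at most 0.112 (without Sp1_deltaDBD ESC replicate 1) and 0.194 (without Sp1_deltaDBD progenitor replicate 2). The ESC call was also lost without Sp3KO ESC replicate 1 (0.0855), and the progenitor call without either Sp3KO replicate (0.109 and 0.142). The antisense transcript Igf2os, which overlaps Igf2 on the plus strand, was at most 18.6 FPKM and was not called against WT in any population. The methods name no strand setting beyond default parameters, so reads of Igf2 and Igf2os may not have been kept apart.

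Igf2 changed at every step in every genotype. From ESC to Flk1 cells it rose by 6.01 in WT, 4.15 in Sp1_deltaDBD and 5.41 in Sp3KO cells (log2), and from Flk1 cells to HE1 by 3.22, 3.31 and 3.97. From HE1 to HE2 it fell by 1.83, 1.55 and 1.87, and from HE2 to progenitors by 3.04, 4.11 and 2.06. The adjusted p-values of these steps lay between 2.34e-09 and 0.0227. The fall from HE1 to HE2 was the least certain. It lost its call without the libraries rich in muscle and epithelial markers in WT (-1.45, adjusted p = 0.186) and Sp1_deltaDBD cells (-1.92, adjusted p = 0.0695), and in each genotype when 1 HE2 library or, in the mutants, 1 HE1 library was left out (adjusted p at most 0.141). In Sp3KO cells the fall to progenitors was lost without HE2 replicate 1 (0.0809) or progenitor replicate 1 (0.0590). Such steps were common among all genes: 52.2% in WT, 48.6% in Sp1_deltaDBD and 48.8% in Sp3KO cells were called by limma from ESC to Flk1 cells, 53.0%, 46.1% and 44.0% from Flk1 cells to HE1, 21.9%, 20.0% and 14.4% from HE1 to HE2, and 13.2%, 15.8% and 8.77% from HE2 to progenitors.

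The ratio of H19 to Igf2 FPKM within a sample set the 2 genes of the domain against each other. In WT samples it lay between 0.246 and 1.01, and in Sp3KO samples between 0.254 and 1.44. In Sp1_deltaDBD samples it was 0.361 and 0.524 in ESC and 0.0422 and 0.0550 in Flk1 cells. HE1 samples of that genotype gave 0.0241 and 0.0139, HE2 samples 0.0313 and 0.0179, and progenitor samples 0.0907 and 0.0293. After the ESC stage the Sp1_deltaDBD ratios were all below the lowest WT ratio. The ratio contains the H19 values that chose the set and was not tested.

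**Figure D1:**
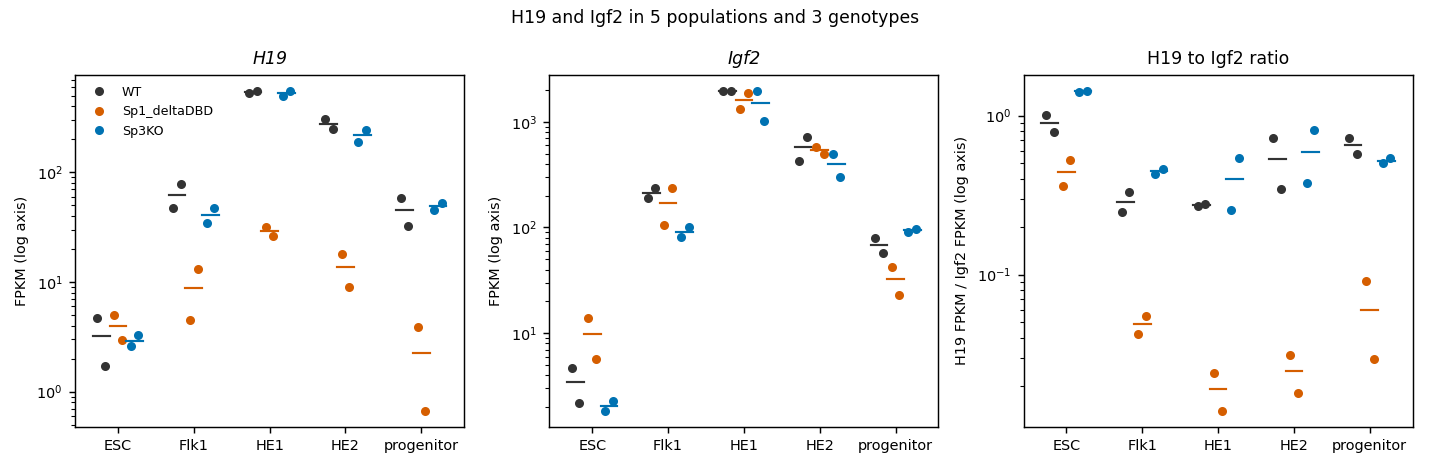
H19 (left) and Igf2 (middle) in FPKM and their ratio (right), each on a log axis, by population on the x axis and genotype in colour. Points are the 2 samples of a group and bars their mean. In HE1, H19 sits at 531 and 550 FPKM in WT and at 31.6 and 26.3 FPKM in Sp1_deltaDBD cells, while Igf2 is at 1976 FPKM in both WT samples and at 1313 and 1893 FPKM in Sp1_deltaDBD cells.

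The genes around H19 were examined as a group. Besides Igf2, 24 genes within 1 Mb on either side were tested, among them the maternally expressed growth regulators Cdkn1c and Phlda2, the non-coding RNA Kcnq1ot1, the ribosomal protein gene Mrpl23 and the troponin genes Tnni2 and Tnnt3. In Sp1_deltaDBD against WT, none was called in ESC, Flk1 cells or progenitors by limma, where 3, 3 and 0 had an unadjusted p below 0.05. In HE1, 1 rose and 1 fell, and in HE2, 1 rose. The gene that fell was Phlda2, with 1.38 and 3.48 FPKM in WT and 0.177 and 0.00251 FPKM in Sp1_deltaDBD cells (log2 difference -3.77, adjusted p = 0.000230). The gene that rose in both populations was R74862, with 2.82 and 2.81 FPKM in WT HE1 and 5.75 and 5.47 FPKM in Sp1_deltaDBD HE1. It rose by 0.97 (adjusted p = 0.0114) in HE1 and 1.21 (adjusted p = 0.00230) in HE2. The HE1 call of R74862 was lost without either WT replicate or Sp1_deltaDBD replicate 2 (adjusted p up to 0.0655) and without the libraries rich in muscle and epithelial markers (0.0995). The median difference over the 24 genes was -0.05 in ESC, -0.22 in Flk1 cells, -0.09 in HE1, 0.05 in HE2 and -0.08 in progenitors. Among all genes tested, the share called between Sp1_deltaDBD and WT was 6.06% in ESC, 5.54% in Flk1 cells, 10.0% in HE1, 9.67% in HE2 and 8.78% in progenitors. In Sp3KO against WT, 0 neighbours were called in ESC, where 2 had an unadjusted p below 0.05, 4 in Flk1 cells and 1 in each of HE1, HE2 and progenitors, where the shares among all genes were 11.3%, 12.6%, 10.9%, 13.8% and 8.65%.

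**Figure D2:**
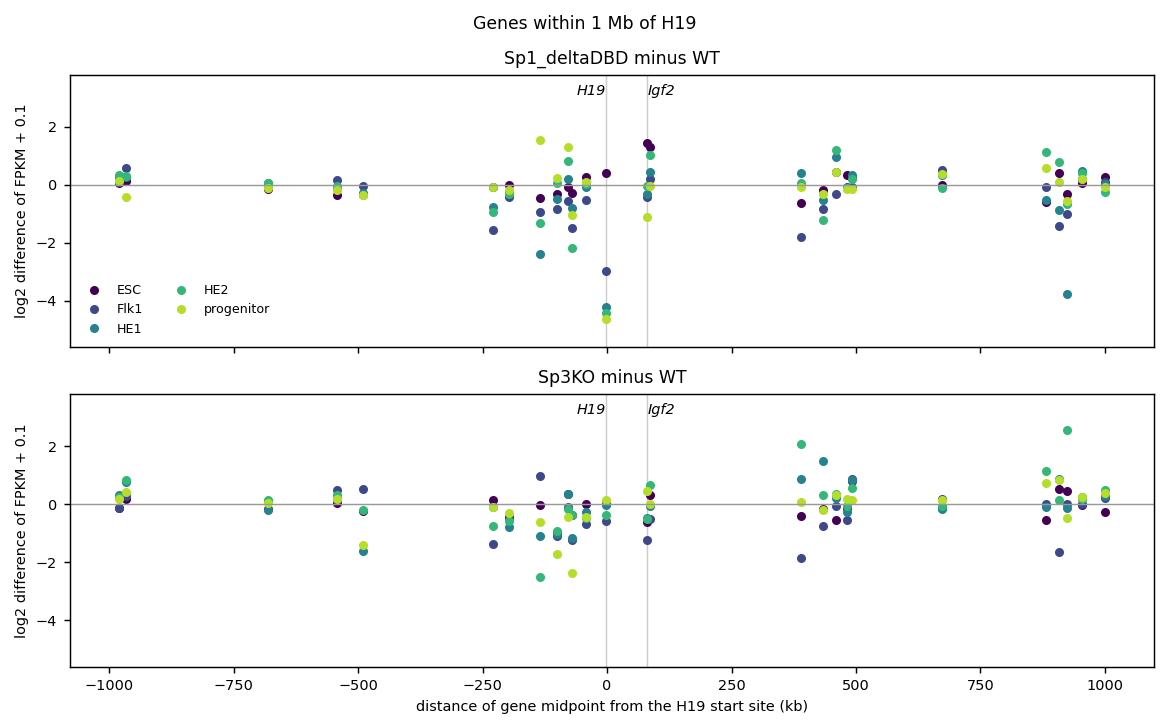
Log2 difference from WT of FPKM + 0.1 (y axis) for H19, Igf2 and the 24 tested neighbours against the distance of the gene's midpoint from the H19 start site in kb (x axis), for Sp1_deltaDBD (top) and Sp3KO cells (bottom), with 1 point per population. H19 lies at -2.96 to -4.65 after the ESC stage in the upper panel and at -0.58 to 0.16 in the lower panel.

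The receptor Igf2r was highest in HE1 in every genotype. It measured 31.7 and 21.4 FPKM in WT ESC, 47.8 and 50.9 FPKM in Flk1 cells, 175 and 305 FPKM in HE1, 45.7 and 48.7 FPKM in HE2 and 32.8 and 17.2 FPKM in progenitors. HE1 samples of the mutants were at 133 and 183 FPKM in Sp1_deltaDBD and 160 and 209 FPKM in Sp3KO cells, above every sample of another population. From Flk1 cells to HE1, Igf2r rose by 2.22 in WT, 1.56 in Sp1_deltaDBD and 2.34 in Sp3KO cells, and from HE1 to HE2 it fell by 2.29, 1.98 and 1.83 (log2, adjusted p at most 0.000617). The antisense transcript Airn overlaps Igf2r, with the same limit on strand as for Igf2. No difference from WT was called for Igf2r, the values running from -0.56 to 0.59 with a standard error of 0.30. In ESC it was lower in Sp3KO cells, at 19.5 and 18.8 FPKM, than in Sp1_deltaDBD cells, at 47.2 and 32.4 FPKM, by 1.03 on the log2 scale (adjusted p = 0.0362), and this call was lost without Sp1_deltaDBD replicate 1 (-0.76, adjusted p above 0.2) and without either Sp3KO replicate (0.158 and 0.173). It was lost as well with the culture as a random block (0.0652). The culture is assumed here, with HE1, HE2 and progenitor samples of the same genotype and replicate number taken as 1 culture.

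Igf1r, the signalling receptor, was lowest in ESC and, by its mean, highest in progenitors. WT samples measured 6.08 and 4.38 FPKM in ESC, 17.6 and 22.7 FPKM in Flk1 cells, 26.8 and 13.4 FPKM in HE1, 16.7 and 14.4 FPKM in HE2 and 33.4 and 26.2 FPKM in progenitors. The HE1 values overlapped those of Flk1 cells and of HE2, while both Flk1 samples lay above both HE2 samples. From ESC to Flk1 cells Igf1r rose by 1.94 in WT, 1.34 in Sp1_deltaDBD and 1.56 in Sp3KO cells (adjusted p at most 0.000215), and from HE2 to progenitors it rose by 0.93 in WT (adjusted p = 0.0179), a call lost without HE2 replicate 2 (0.109) or progenitor replicate 1 (0.166), against 0.70 (0.0720, and 0.0120 with the culture as a random block) in Sp1_deltaDBD and 0.43 (0.369) in Sp3KO cells. The differences from WT ran from -0.41 to 0.46 with a standard error of 0.25, and none was called. The mutant values stayed within 5.02 to 6.47 FPKM in ESC and 26.4 to 41.6 FPKM in progenitors.

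Of the RNA-binding members, Igf2bp2 was lower in Sp1_deltaDBD cells late in the series. WT samples measured 37.2 and 34.6 FPKM in ESC, 64.2 and 64.9 FPKM in Flk1 cells, 40.9 and 38.8 FPKM in HE1, 35.5 and 35.7 FPKM in HE2 and 19.5 and 21.9 FPKM in progenitors. Sp1_deltaDBD samples measured 33.3 and 31.4, 47.8 and 64.8, 29.5 and 34.8, 18.8 and 21.2, and 5.47 and 6.26 FPKM in the same order of populations. Both Sp1_deltaDBD samples were below both WT samples in ESC, HE1, HE2 and progenitors, as were 22.5%, 19.9%, 18.6% and 17.7% of all genes, and in Flk1 cells the samples overlapped. Igf2bp2 fell by 0.83 ± 0.14 (log2, SE, adjusted p = 0.000632) in HE2 and by 1.80 ± 0.14 (adjusted p = 1.58e-07) in progenitors. In Sp3KO cells Igf2bp2 was at 29.2 and 34.7 FPKM in HE2 and at 17.1 and 19.4 FPKM in progenitors. It was higher there than in Sp1_deltaDBD cells by 0.67 (adjusted p = 0.00267) in HE2 and 1.62 (adjusted p = 5.33e-07) in progenitors, the HE2 value not passing without Sp3KO HE2 replicate 2 (0.55, adjusted p = 0.0578).

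In progenitors the Sp1_deltaDBD call of Igf2bp2 stayed under every alternative run, with adjusted p at most 9.15e-06 when any library was left out and 0.000161 without the 6 libraries rich in muscle and epithelial markers. In HE2 it was -0.75 (adjusted p = 0.0220) without those 6 libraries and was lost when HE2 was fitted alone (adjusted p = 0.0695). In Sp3KO ESC, at 26.2 and 26.9 FPKM, Igf2bp2 was lower than WT by 0.43 (adjusted p = 0.0463), a call that was lost in 14 of the 30 fits that left out 1 library.

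Igf2bp3 was highest in Flk1 cells, at 61.2 and 61.7 FPKM in WT, and lowest in progenitors and ESC. In progenitors it measured 25.2 and 25.0 FPKM in WT, 19.8 and 18.3 FPKM in Sp1_deltaDBD and 17.5 and 16.3 FPKM in Sp3KO cells, and both mutants lay below WT, as did 17.7% of all genes in Sp1_deltaDBD and 23.4% in Sp3KO progenitors. The Sp3KO difference, -0.57 ± 0.13 (SE), was called (adjusted p = 0.0107), and the Sp1_deltaDBD difference, -0.40 ± 0.13, was not (adjusted p = 0.0660). Without the 6 libraries rich in muscle and epithelial markers both were called, with adjusted p of 0.00549 and 0.0452. The Sp3KO call was lost without WT progenitor replicate 1 (adjusted p = 0.0534) and without Sp3KO progenitor replicate 2 (adjusted p = 0.0858). Sp3KO cells were also below Sp1_deltaDBD cells in ESC, by 0.54 (adjusted p = 0.0133), with 20.2 and 22.1 FPKM against 28.5 and 33.3 FPKM. The same held in HE1, by 0.45 (adjusted p = 0.0275), with 38.7 and 40.9 FPKM against 53.4 and 55.3 FPKM, and with GC content and length removed the HE1 value was -0.26 (adjusted p = 0.196). The ESC call was lost without Sp1_deltaDBD replicate 2 or Sp3KO replicate 1 (adjusted p of 0.120 and above), and the HE1 call without any 1 of the 4 libraries compared (0.0638 to 0.149).

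Igf2bp1 was the most evenly expressed member. WT samples measured 111 and 139 FPKM in ESC, 125 and 142 FPKM in Flk1 cells, 116 and 91.4 FPKM in HE1, 93.2 and 103 FPKM in HE2 and 102 and 82.0 FPKM in progenitors, and all 30 samples lay between 56.7 and 164 FPKM. No difference from WT was called, the values running from -0.38 to 0.12 with a standard error of 0.24. The median of all 1205 chromosome 11 genes, Igf2bp1 among them, was itself below WT, at -0.12 to -0.34 in Sp1_deltaDBD and -0.12 to -0.27 in Sp3KO cells. A fit with chromosome medians removed was among the alternatives described below. Beyond that fit, the part of this shift in the Igf2bp1 values was not tested.

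**Figure D3:**
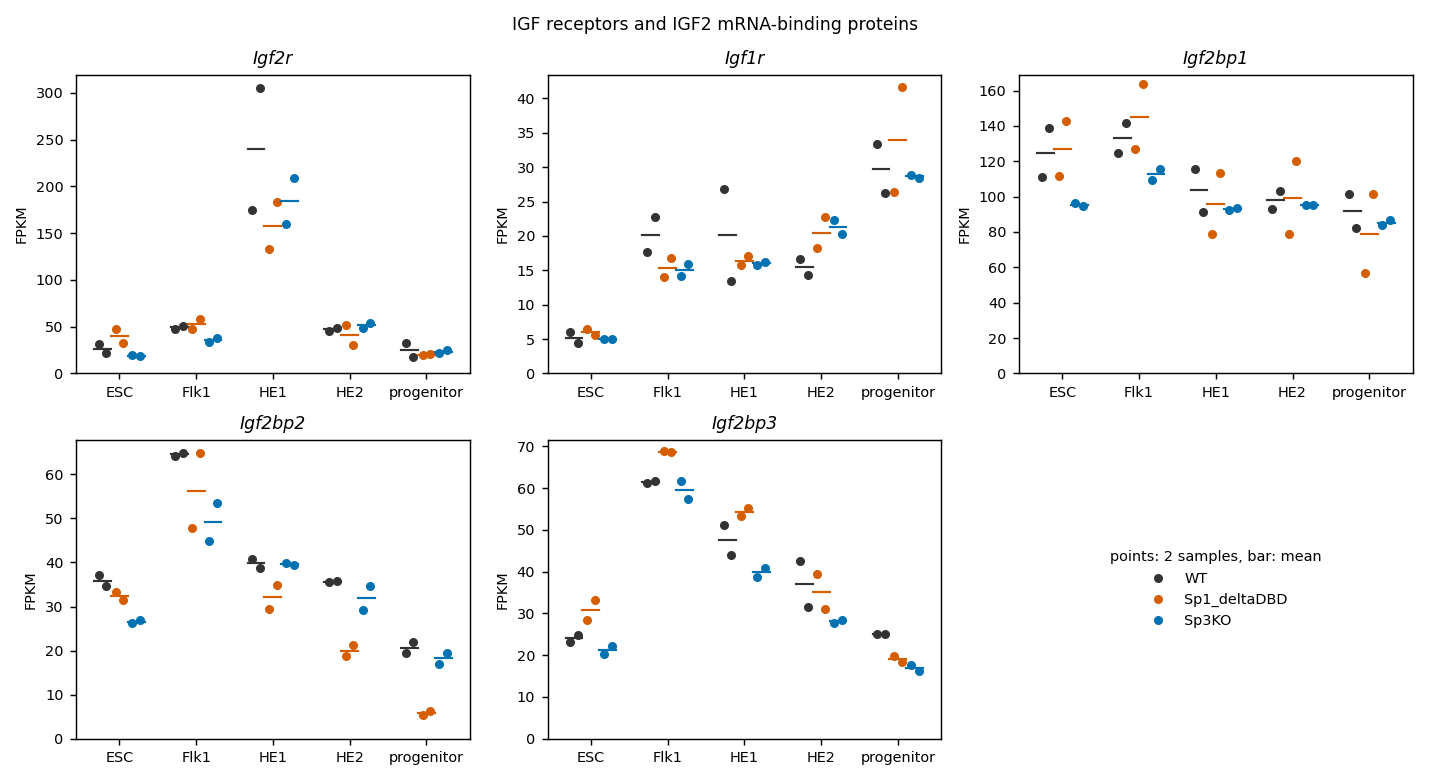
FPKM on linear axes from 0 for the receptors Igf2r and Igf1r and for Igf2bp1, Igf2bp2 and Igf2bp3, by population on the x axis and genotype in colour. Points are the 2 samples of a group and bars their mean. Igf2bp2 falls to 5.47 and 6.26 FPKM in Sp1_deltaDBD progenitors against 19.5 and 21.9 FPKM in WT, and Igf2r peaks in HE1 in all 3 genotypes.

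Counted together, Igf2bp2 in HE2 and Igf2bp2 in progenitors were the calls between Sp1_deltaDBD and WT among the 6 tested members, 1 of 6 in each. In ESC, Flk1 cells and HE1, 0 of 6 were called by limma, with 2, 0 and 1 at an unadjusted p below 0.05. Against the background of 5.54% to 10.0% called among all genes, these counts of 0 or 1 are no result about the members. In Sp3KO against WT, 1 of 6 was called in ESC and 1 of 6 in progenitors, and 0 of 6 in Flk1 cells, HE1 and HE2, with 2, 0 and 1 at an unadjusted p below 0.05. Among all genes 11.3%, 12.6%, 10.9%, 13.8% and 8.65% were called from ESC to progenitors, so these counts too are no result about the members. Between the 2 mutants 3 of 6 were called in ESC, 0 in Flk1 cells, 1 in HE1, 1 in HE2 and 2 in progenitors, where 9.67%, 7.39%, 13.6%, 15.9% and 11.6% of all genes were called. In Flk1 cells 0 of 6 had an unadjusted p below 0.05. The comparisons of each mutant with WT share the WT samples.

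For each mutant, the difference from WT after the ESC stage was also set against the one in ESC. For Sp1_deltaDBD, 3 of 6 members passed this test of the difference in progenitors, Igf2, Igf2bp2 and Igf2bp3, all with a lower value relative to WT in progenitors than in ESC, where 3.15% of all genes were called. In Flk1 cells, HE1 and HE2, 0 of 6 were called by limma (1, 2 and 3 at an unadjusted p below 0.05), where 1.74%, 3.99% and 2.62% of all genes were called. For Sp3KO, 0 of 6 were called in Flk1 cells, HE1, HE2 and progenitors (0, 1, 0 and 0 at an unadjusted p below 0.05), against 1.48%, 2.16%, 0.544% and 1.34% of all genes.

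**Figure D4:**
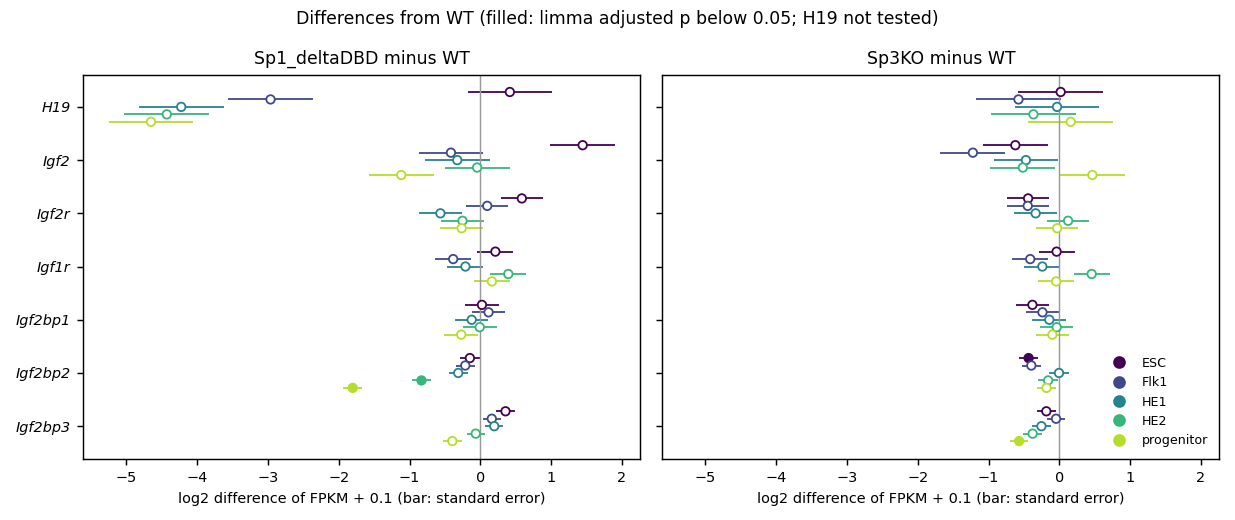
Log2 difference from WT of FPKM + 0.1 (x axis) for each member (y axis) in Sp1_deltaDBD (left) and Sp3KO cells (right), with 1 point per population and bars of 1 standard error. Filled points passed limma at an adjusted p below 0.05, and H19 was not tested. H19 reaches -4.65 in Sp1_deltaDBD progenitors, and the filled points are Igf2bp2 at -0.83 and -1.80 on the left and Igf2bp2 at -0.43 and Igf2bp3 at -0.57 on the right.

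The other ligands, binding proteins and proteases of the IGF system had 12 of 19 listed genes tested. Igf1, the second IGF ligand, was higher in Sp1_deltaDBD cells. It measured 5.49 and 12.5 FPKM in WT HE1 and 18.9 and 36.7 FPKM in Sp1_deltaDBD HE1, and 3.19 and 5.74 FPKM in WT progenitors and 13.9 and 16.8 FPKM in Sp1_deltaDBD progenitors. Igf1 rose by 2.39 (log2, adjusted p = 0.00446) in Flk1 cells, where it was at most 2.41 FPKM, by 1.65 (adjusted p = 0.0324) in HE1 and by 1.81 (adjusted p = 0.0208) in progenitors. In Sp3KO cells it rose in Flk1 cells (1.53, adjusted p = 0.0401) and in progenitors (1.90, adjusted p = 0.0170). Without the 6 libraries rich in muscle and epithelial markers, Igf1 was no longer called in Sp1_deltaDBD HE1 (adjusted p = 0.114) and progenitors (adjusted p = 0.148) or in Sp3KO progenitors (adjusted p = 0.0815). In Flk1 cells the calls were lost with a pseudocount of 1 FPKM (1.06 and 0.54, adjusted p = 0.116 and 0.405). Each Igf1 call was also lost when certain single libraries of the groups compared were left out, with adjusted p up to 0.324, in HE1 without WT replicate 1 or Sp1_deltaDBD replicate 2, and in progenitors without WT replicate 1, either Sp1_deltaDBD replicate or either Sp3KO replicate.

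Igfbp3, a secreted protein that binds the IGF ligands, was lower in both mutants in HE1 and HE2. It measured 14.1 and 28.6 FPKM in WT HE1, 3.23 and 3.68 FPKM in Sp1_deltaDBD HE1 and 1.18 and 1.50 FPKM in Sp3KO HE1. The Sp1_deltaDBD difference was -2.51 (adjusted p = 0.000271) in HE1 and -1.38 (adjusted p = 0.0253) in HE2. The Sp3KO difference was -1.65 (adjusted p = 0.00836) in ESC, -3.82 (adjusted p = 1.65e-05) in HE1 and -1.94 (adjusted p = 0.00291) in HE2. With chromosome medians removed the Sp1_deltaDBD difference in HE2 was -1.07 and was no longer called (limma adjusted p = 0.0906). The Sp1_deltaDBD call in HE2 was lost without either WT replicate or Sp1_deltaDBD replicate 2 (0.0679 to 0.197), and the Sp3KO call in ESC without WT replicate 1 or either Sp3KO replicate (0.0613 to 0.124). Igfbp7, another binding protein, was called lower in Sp1_deltaDBD progenitors (-3.54, adjusted p = 0.0333), where WT samples measured 4.55 and 0.234 FPKM and mutant samples 0.00595 and 0.00816 FPKM. This call was lost without WT replicate 1 (-1.64, adjusted p = 0.408) and without either Sp1_deltaDBD replicate. Over the 12 genes, 0, 1, 2, 1 and 1 rose and 0, 0, 1, 1 and 1 fell in Sp1_deltaDBD cells from ESC to progenitors, and 3 had an unadjusted p below 0.05 in ESC. In Sp3KO cells 0, 2, 0, 0 and 1 rose and 1, 1, 1, 1 and 0 fell. Over all genes the shares called were 5.54% to 10.0% in Sp1_deltaDBD and 8.65% to 13.8% in Sp3KO populations.

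Of 26 listed genes of IGF signal transduction 25 were tested. In Sp1_deltaDBD cells 2, 1, 0, 2 and 2 of the 25 were called from ESC to progenitors, with medians of -0.12 to 0.05, and in HE1 6 had an unadjusted p below 0.05. In Sp3KO cells 5, 5, 3, 4 and 3 were called, with medians of -0.15 to 0.02. Among all genes 5.54% to 10.0% were called in Sp1_deltaDBD and 8.65% to 13.8% in Sp3KO populations. Grb10, an imprinted adaptor that restrains IGF1R signalling, was at 33.7 and 30.2 FPKM in WT ESC and 7.22 and 5.93 FPKM in Sp3KO ESC (-2.27, adjusted p = 4.9e-05), and it was lower in Sp3KO Flk1 cells too (-1.06, adjusted p = 0.0101), a call lost without either WT replicate or Sp3KO replicate 1 (adjusted p up to 0.179). Genes called lower in at least 3 Sp3KO populations included Pik3cb, a catalytic subunit of phosphoinositide 3-kinase, and Grb14, an adaptor that inhibits the insulin receptor. Pik3cb was lower by 1.06 in HE1 (adjusted p = 0.00233), 0.79 in HE2 (0.0126) and 0.94 in progenitors (0.00661). The HE1 call was lost without WT replicate 1 (-0.68, adjusted p = 0.0515), and the HE2 call without WT replicate 1 (0.176) or Sp3KO replicate 2 (0.123). Grb14 was at most 0.439 FPKM in HE2 and progenitors of all genotypes, where it was called, and measured 3.42 and 4.12 FPKM in WT against 1.63 and 1.39 FPKM in Sp3KO Flk1 cells (-1.27, adjusted p = 0.0280). It was also called lower in Sp1_deltaDBD HE2 (-1.50, adjusted p = 0.0128) and progenitors (-1.32, adjusted p = 0.0275). Each Grb14 call was lost with 1 library left out: without any 1 of the libraries compared in Sp3KO Flk1 cells (adjusted p up to 0.210), without WT replicate 1 in HE2 of both mutants (0.0741 and 0.174), without Sp1_deltaDBD replicate 2 in HE2 (0.194), and without WT replicate 1 or either mutant replicate in progenitors (up to 0.334), and in Sp3KO progenitors also without 1 WT or Sp3KO Flk1 library. The calls in HE2 and progenitors were also lost with a pseudocount of 1 FPKM.

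The 14 listed regulators of the H19 and Igf2 locus and of its RNAs were all tested. They included the insulator protein Ctcf, the imprint-binding Zfp57 with its partner Trim28, DNA methyltransferases and Tet enzymes, the zinc finger factor Plagl1, and Lin28a, Lin28b and Hmga2. Ctcf differed from WT by -0.10 to 0.25 in Sp1_deltaDBD cells and was not called. In Sp1_deltaDBD cells 0, 0, 1, 1 and 1 of 14 were called from ESC to progenitors, with 1 and 2 at an unadjusted p below 0.05 in ESC and Flk1 cells. Hmga2, a chromatin protein whose mRNA is a target of the Igf2bp proteins, was the gene that fell in HE2, by 1.16 (adjusted p = 0.0175), and in progenitors, by 1.61 (adjusted p = 0.00198). The HE2 call of Hmga2 was lost without WT replicate 2 (adjusted p = 0.138) or Sp1_deltaDBD replicate 1 (-0.75, adjusted p = 0.155). In HE2 it measured 166 and 239 FPKM in WT, 67.0 and 118 FPKM in Sp1_deltaDBD and 86.2 and 73.8 FPKM in Sp3KO cells. Plagl1, an imprinted activator of H19 and Igf2, was lower in Sp3KO cells by 3.55 in HE1 (adjusted p = 0.000420) and 2.54 in HE2 (adjusted p = 0.00445). In HE1 it measured 17.4 and 23.1 FPKM in WT, 16.4 and 8.06 FPKM in Sp1_deltaDBD and 1.27 and 2.05 FPKM in Sp3KO cells. With each population fitted alone, the HE1 and HE2 calls of Plagl1 were lost (limma adjusted p = 0.0591 and 0.105). Lin28a, an RNA-binding protein that blocks let-7 processing, was higher in Sp3KO progenitors, at 59.8 and 50.1 FPKM against 28.7 and 21.7 FPKM in WT (1.13, adjusted p = 0.00331). This call was lost with progenitors fitted alone (limma adjusted p = 0.0879). In Sp3KO cells 0, 0, 3, 1 and 1 of the 14 rose and 1, 0, 1, 2 and 0 fell, and in Flk1 cells 2 had an unadjusted p below 0.05. For comparison, 5.54% to 10.0% of all genes were called in Sp1_deltaDBD and 8.65% to 13.8% in Sp3KO populations.

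The imprinted gene network, the imprinted genes co-regulated with H19 and Igf2, had 11 of 12 other genes in the table, and its counts are given per mutant. In Sp3KO cells 4, 3, 3, 4 and 1 of 11 fell from ESC to progenitors and 0 rose, with medians of -0.98, -0.53, -0.65, -0.98 and -0.65. In Sp1_deltaDBD cells 0, 0, 1, 1 and 1 fell and 0, 1, 0, 0 and 0 rose, with medians of 0.12, -0.08, -0.54, -0.39 and -0.28. The shares called among all genes were 8.65% to 13.8% for Sp3KO and 5.54% to 10.0% for Sp1_deltaDBD. Cdkn1c, Grb10 and Plagl1 each belong to this list and to an earlier one, and are counted in both. Mest, the paternally expressed gene of a hydrolase-like protein, was lower in all 5 Sp3KO populations, by 1.53 to 2.21 (adjusted p at most 0.00223). In HE1 it measured 1111 and 1376 FPKM in WT and 410 and 256 FPKM in Sp3KO cells. With each population fitted alone, Mest lost its call in Flk1 cells, HE1, HE2 and progenitors (limma adjusted p of 0.0504 to 0.0757). Meg3, a maternally expressed long non-coding RNA, measured 18.0 and 21.5 FPKM in WT ESC and 0.306 and 0.659 FPKM in Sp3KO ESC. It was lower in 4 Sp3KO populations, by 3.27 to 5.29 (adjusted p at most 0.0105), and was not called in any Sp1_deltaDBD population. With each population fitted alone, the HE1 and HE2 calls of Meg3 were lost (limma adjusted p = 0.0590 and 0.131). The Meg3 call in HE2 was lost without WT replicate 1 (adjusted p = 0.1002) or either Sp3KO replicate. Gatm, a creatine synthesis enzyme present at 1.94 FPKM or less, was the network gene lower in Sp1_deltaDBD HE1, HE2 and progenitors, by 2.15, 2.58 and 2.26 (adjusted p at most 0.0176). Each Gatm call was lost with 1 library left out. In HE1 this was so without either WT replicate or Sp1_deltaDBD replicate 2 (-1.07, adjusted p = 0.332), in HE2 without WT replicate 1 or Sp1_deltaDBD replicate 2 (at most 0.0900), and in progenitors without replicate 1 of WT or of Sp1_deltaDBD (at most 0.0988).

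The genes most like H19 over the 30 samples, by Pearson correlation of log2(FPKM + 0.1) among 12016 genes, were Cxx1a (0.943), Cant1 (0.939), Cd59a (0.936), Rab13 (0.930) and Fkbp7 (0.911). The 30 samples include the Sp1_deltaDBD samples that chose the set. Cd59a, an inhibitor of complement lysis, measured 15.4 and 23.2 FPKM in WT HE1, 3.55 and 5.83 FPKM in Sp1_deltaDBD HE1 and 17.9 and 20.2 FPKM in Sp3KO HE1. Cxx1a measured 27.6 and 25.4 FPKM, 3.18 and 1.95 FPKM and 15.4 and 17.3 FPKM in the same groups. The genes most like Igf2 were others: Col4a2 (0.975), a basement membrane collagen, Ptprm (0.973), Nhsl2 (0.973), Ldb2 (0.970) and the transcription factor Ets1 (0.966). H19 and Igf2 correlated at 0.785. All these correlations are across samples that share populations and are given as a description.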

How the data were processed

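Per the labels and the study's methods, total RNA was depleted of ribosomal RNA, made into stranded libraries and sequenced in pairs, with 2 biological replicates a group. The authors aligned reads to mm10 with HISAT2 2.1.0, quantified FPKM with StringTie 1.3.3, dropped genes that never exceeded 1 FPKM and deposited quantile normalised FPKM values. Quantile normalisation gives every sample the same distribution, so a shift of all genes cannot be seen. Read depth is unknown and no counting interval can be given. Libraries were sequenced in pools, and which pool held which library is not given in the sources used here.

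Differences were tested on log2(FPKM + 0.1) with limma 3.58.1 in R 4.3.3, fitting 15 group means to 30 samples (15 residual degrees of freedom, intensity trend) over the 14525 genes whose highest value exceeded 1 FPKM. P-values were two-sided, adjusted by Benjamini-Hochberg within each comparison and called below 0.05. They rest on the spread between the 2 samples of a group, pooled for each gene over the 15 groups and drawn towards the intensity trend. For Igf2 the pooled spread includes the WT HE1 samples with equal values. The steps were tested on simulated data first. Figures and tables were made in Python 3.11.15 with pandas 2.3.3, numpy 2.4.6 and matplotlib 3.10.9. Of the symbols, 14370 matched GENCODE M21 (GRCm38) directly and 188 by an older symbol, and 127 did not match.

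The members and gene lists were chosen with earlier results of these data known. H19 was not tested between WT and Sp1_deltaDBD cells nor in steps and contrasts that use them. Besides members, the genes named were list genes called against WT in at least 3 populations in 1 direction, up to 4 others a list by the size of their called change, and the 5 genes most like H19 and most like Igf2 among those with a mean above 3 FPKM in at least 1 group. Ctcf was singled out after its values were seen. A gene that this rule names is not reported here. Alternatives changed the pseudocount, filter, replicate block, population set, culture block, variance model, chromosome medians, GC content and length, and left out each library in turn. No label gives the culture of a sample. The culture block took HE1, HE2 and progenitor samples of the same genotype and replicate number as 1 culture. The main fit treated these samples as independent, which they may not be.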

Additional observations from a re-analysis of the deposited data

Results flagged for a closer look

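The effect of Sp1_deltaDBD differed between progenitors and ESC for 3 members by a test of the difference itself (limma, a contrast called for 3.15% of all genes). For Igf2 the effect in progenitors minus that in ESC was -2.56 ± 0.65 (log2, SE, adjusted p = 0.0368), with -1.12 in progenitors and 1.44 in ESC. It ranged from -3.21 to -1.92 when 1 library was left out, with adjusted p up to 0.184, and was -2.77 (adjusted p = 0.0961) without the 6 libraries rich in muscle and epithelial markers. For Igf2bp2 the difference was -1.65 ± 0.19 (adjusted p = 0.000180), with -1.80 in progenitors and -0.15 in ESC, and it stayed called when any library was left out (-1.75 to -1.56, adjusted p at most 0.00127). For Igf2bp3 it was -0.75 ± 0.18 (adjusted p = 0.0318), with -0.40 in progenitors and 0.36 in ESC, and it ranged from -0.86 to -0.64, with adjusted p up to 0.0847, when 1 library was left out. The part of depth, line or markers in these differences was not tested.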

How the results depend on the processing

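The sums below are calls over the 5 populations and the 6 tested members. Between Sp1_deltaDBD and WT there were 2 calls, against 4 with the replicate block, 1 with each population fitted alone, 4 with GC content and length removed, 4 without the libraries rich in muscle and epithelial markers (an alternative chosen after seeing the data), and 2 to 3 with 1 library left out. Between Sp3KO and WT there were 2 calls, against 4 with the replicate block, 1 with each population alone, 1 with a robust fit without an intensity trend, 1 with chromosome medians removed, 1 with GC content and length removed, and 0 (without Sp3KO progenitor replicate 2) to 3 with 1 library left out. Between the mutants there were 7 calls, against 1 with each population alone, 4 with GC content and length removed, and 4 (without Sp3KO ESC replicate 1) to 7 with 1 library left out. The differences between the effect in a later population and in ESC gave 3 calls, 1 with the robust fit and 1 to 4 with 1 library left out. Over the 30 samples there were 49 called steps between populations, and 44 to 50 with 1 library left out. No called difference changed sign, while differences near 0 that were not called did. With the replicate block Igf2 in ESC (adjusted p = 0.04996) and Igf2bp3 in progenitors (0.0363) were called between Sp1_deltaDBD and WT. Of the list genes, Igf1, Igfbp3, Hmga2, Gatm and others also lost calls with each population fitted alone. Where a call moved, the cause was not tested, beyond the fewer samples of the fits on 1 population. Samples with the same replicate number deviated together between WT and Sp1_deltaDBD cells (correlation 0.255 to 0.481) and less between WT and Sp3KO cells (0.00318 to 0.194), and with 2 replicates this does not establish a pairing. Read depth, which sets the error of low values such as Grb14, is unknown.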
